A study of Arabidopsis thaliana with 8 samples.

Results

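Nucleosomes at 2 Arabidopsis genes, LEAFY (LFY, AT5G61850) and UNUSUAL FLORAL ORGANS (UFO, AT1G30950), were described from 4 lists of nucleosome positions. A nucleosome was a member if its interval overlapped either gene or the region from 3 kb before its transcript start to 1 kb past its end. By this rule 165 of the 1417407 nucleosomes listed on the nuclear chromosomes were members, 99 at LFY and 66 at UFO. The lists came from root explants of Landsberg erecta plants, and all groups, mock-treated ones included, carried the transgene 35S:LFY-GR. Roots of 3-week-old seedlings had been moved to callus-inducing medium for up to 5 days, given mock or dexamethasone (dex) solution for 1 h, and digested with a low or a high amount of micrococcal nuclease (MNase). The 4 groups are called low-mock, low-dex, high-mock and high-dex, after the digest and the treatment, each with 2 libraries deposited as 1 pooled list. The high-dex list carries, within it, the name lowDex_MNase2, which reads as low digest with dex but is not the title of any library. It is therefore written as nominal high-dex.

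LFY is a plant-specific transcription factor that gives flower identity to meristems arising on the flanks of the shoot apex. UFO is an F-box protein, the substrate-binding subunit of an SCF ubiquitin ligase, and acts as a cofactor of LFY in switching on the genes of petal and stamen identity. Both genes are active in floral tissue. In LFY-GR, LFY is joined to the part of the glucocorticoid receptor that binds the hormone, which keeps the fusion protein out of the nucleus until a steroid such as dex is added. The cauliflower mosaic virus 35S promoter drives the fusion in most tissues. Because the transgene holds LFY protein-coding sequence, and the reads do not tell it from the native gene, coding exons and introns of LFY are given apart. Copy number and insertion site of the transgene were not given in the sources used here.

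MNase digests DNA between nucleosomes, so that the protected fragments show nucleosome positions; fragile nucleosomes survive a low digest and are lost at a high one. Each listed nucleosome is an interval of 140 bp with an occupancy, the signal at its summit. The lists held 316733 (low-mock), 242336 (low-dex), 482098 (high-mock) and 376240 nucleosomes (nominal high-dex), with median occupancies of 136.6, 96, 203.2 and 189. These are counts on the nuclear chromosomes. The low-dex list is longer than the count the paper gives for that group. The other lists, nominal high-dex included, are slightly shorter than the paper's counts for the groups they are named after. Why the low-dex counts differ was not tested. The scaling between lists is not known, so occupancy is given within its own list, as the percentage of the list with a lower value or as a multiple of the list median. There was no value per replicate, hence no spread and no test, and all differences between lists are descriptions without a replicate check. Read depth is unknown, and a longer list cannot be told from deeper sequencing. Expression was not analysed here, and from nucleosome lists the labelled tissue could not be checked against marker genes.

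LFY lies at chr5:24844248-24846989 on the plus strand (TAIR10). Its 3 coding exons have 457, 407 and 411 bp and its introns 458 and 906 bp. UFO lies at chr1:11035992-11037508, also on the plus strand, and consists of 1 exon with 1329 bp of coding sequence. The sequences below are those to which the results refer, read 5′ to 3′ from the plus strand of the reference. In the first 4, the 3 LFY intervals that held the highest occupancy of the whole low-dex list and the best occupied UFO coding interval, capitals mark bases that lay inside a listed nucleosome in all 4 lists.
LFY exon 1, chr5:24844452-24844591: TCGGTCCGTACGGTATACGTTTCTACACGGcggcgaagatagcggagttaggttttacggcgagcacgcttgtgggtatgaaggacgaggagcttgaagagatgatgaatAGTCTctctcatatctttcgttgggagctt
LFY exon 2, chr5:24845262-24845401: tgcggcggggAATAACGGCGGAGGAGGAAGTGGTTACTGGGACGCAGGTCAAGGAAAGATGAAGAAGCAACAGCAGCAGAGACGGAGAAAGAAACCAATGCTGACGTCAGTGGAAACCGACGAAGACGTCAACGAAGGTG
LFY exon 3, chr5:24846742-24846881: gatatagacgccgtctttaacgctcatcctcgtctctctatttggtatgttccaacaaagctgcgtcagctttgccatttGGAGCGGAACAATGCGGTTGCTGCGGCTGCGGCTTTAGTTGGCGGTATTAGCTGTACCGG
UFO coding sequence, chr1:11037322-11037461: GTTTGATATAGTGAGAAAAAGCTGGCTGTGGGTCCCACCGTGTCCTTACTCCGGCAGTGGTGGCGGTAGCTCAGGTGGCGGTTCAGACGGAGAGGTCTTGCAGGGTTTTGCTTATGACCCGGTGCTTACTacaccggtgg
The next interval spans the junction of intron 1 and exon 2 of LFY, and was listed in low-mock with one of the lowest occupancies of the gene; capitals mark the exon.
LFY intron 1 to exon 2, chr5:24845102-24845241: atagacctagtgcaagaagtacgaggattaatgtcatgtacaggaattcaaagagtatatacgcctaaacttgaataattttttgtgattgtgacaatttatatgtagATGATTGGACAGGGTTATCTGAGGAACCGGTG
In the following interval of the LFY promoter, listed in low-dex, capitals mark CAACTGTC, known as the gibberellin-responsive element of this promoter.
LFY promoter, chr5:24843947-24844086: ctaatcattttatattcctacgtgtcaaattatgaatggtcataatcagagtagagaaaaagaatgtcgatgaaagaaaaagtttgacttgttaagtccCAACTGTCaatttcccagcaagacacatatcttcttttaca
The last run is the 250 bp before the UFO start, in which capitals mark the 50 bases that were inside a nucleosome in any list.
UFO promoter, chr1:11035742-11035991: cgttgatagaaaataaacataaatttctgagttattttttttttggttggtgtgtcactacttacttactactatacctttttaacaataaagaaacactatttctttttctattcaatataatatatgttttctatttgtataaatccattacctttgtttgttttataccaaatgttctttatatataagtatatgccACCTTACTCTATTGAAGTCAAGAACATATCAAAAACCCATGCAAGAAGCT

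In all 4 lists, the nucleosomes over LFY coding exons had a higher median occupancy than those over its introns. The median gene had this direction too in each list. In the low-dex list the LFY coding nucleosomes were among the best occupied of the nuclear genome. In that list, 8 nucleosomes had their center in a coding exon, with occupancies of 1424, 1440 and 1152 in exon 1, 96, 1440 and 944 in exon 2, and 1360 and 1440 in exon 3. The 4 intron nucleosomes had 96, 48, 160 and 80. Of the 8 coding values 7 lay above all intron values, and the remaining one, 96, was that of a nucleosome that ran across the junction of intron 1 and exon 2. The coding median was 1392, or 14.5 times the median of the list, and exceeded the intron median of 88 by a factor of 15.8. All values of this list are whole multiples of 8 and its maximum is 1440, so its ratios are on a coarse scale.

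In low-mock, the 6 coding nucleosomes had occupancies of 775.5, 318.7, 919.4, 72.22, 360.4 and 183.2, and the 2 intron nucleosomes had 55.85 and 223.4. Coding and intron values overlapped here, with medians of 339.5 and 139.6 and a ratio of 2.43. In high-mock, the 8 coding nucleosomes ranged from 184.6 to 479.1 and the 4 intron nucleosomes from 62.82 to 243, with a ratio of medians of 2.13. In nominal high-dex, the 9 coding nucleosomes ranged from 201.5 to 444.5, above both intron nucleosomes at 75.64 and 151.2, and the ratio was 2.30. The high digest lists thus held no LFY nucleosome above 2.36 times the list median, against 6.73 times in low-mock and 15 times in low-dex.

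**Figure D1:**
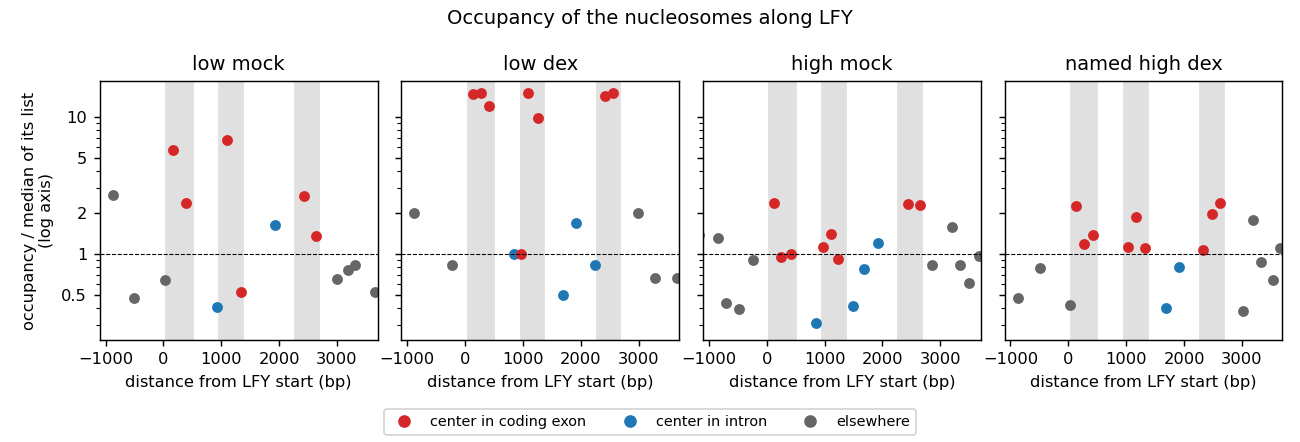
Occupancy of each listed nucleosome along LFY, divided by the median of its own list (log axis), against the distance of its center from the LFY start in bp, with 1 panel per list; grey bands are coding exons, red points have their center in a coding exon, blue in an intron, grey elsewhere. In low-dex, 7 of the 8 red points sit between 9.83 and 15, far above all blue and grey points of that panel.

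Set beside other genes, the LFY ratio stood apart in the low-dex list. Of the 5992 genes with at least 2 coding and 2 intron nucleosomes in that list, LFY had the highest ratio, against a median of 1.10 over genes. The next genes were the auxin response factor genes ARF19 (AT1G19220), with 7.78, and MONOPTEROS (MP, AT1G19850), a known activator of LFY, with 3.77. ARF19, MP and the use of the ratio in place of a percentile were chosen after the values had been seen. By the difference in percentile, which saturates near the top of a list, LFY ranked 154 of the same genes. In the other lists LFY had rank 159 of 5310 (low-mock), 2097 of 12861 (high-mock) and 1970 of 8320 genes (nominal high-dex) by the ratio. The median ratios over genes in these lists were 1.27, 1.45 and 1.7. ARF19 and MP did not lead there either, with ratios between 1.29 and 2.27 in those lists.

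**Figure D2:**
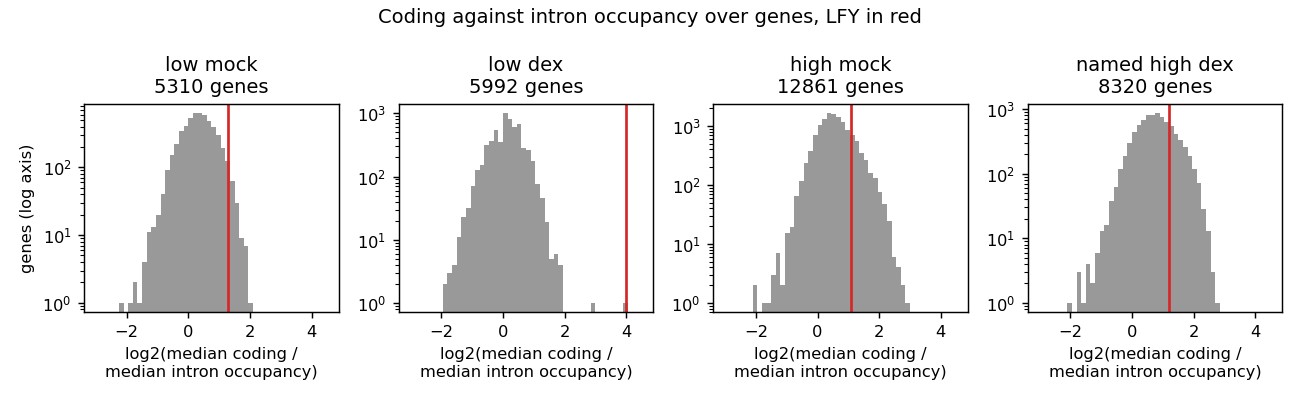
Number of genes (log axis) by the log2 of the ratio of median coding to median intron occupancy, 1 panel per list; the red line is LFY. The line lies within the bulk or at its shoulder in 3 lists and beyond all other genes in low-dex, at a ratio of 15.8.

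Of the coding nucleosomes of LFY, 7 of 8 were in the highest 1% of the list by occupancy in low-dex, where 0.627% of all coding nucleosomes were. In low-mock, 2 of 6 reached the highest 1%, against 0.306% of all coding nucleosomes. None of the 8 in high-mock did (background 1.51%), nor did any of the 9 in nominal high-dex (background 1.24%). The upstream, intron and downstream nucleosomes of LFY held 0 members of the highest 1% in each of the 4 lists, so that in the low digest lists the excess was seen in coding exons. In the whole low-dex list 9 nucleosomes shared the maximum of 1440, of which 3 lay in LFY, 1 in each coding exon, and 1 in MP. At an occupancy of 1000 or more, 6 of 52 nucleosomes of this list lay in LFY coding exons, 7 in ARF19 and 6 in MP coding exons. Another 8 lay in or within 1 kb upstream of the polyubiquitin gene UBQ10 (AT4G05320), also chosen after its values had been seen, which had 2 in low-mock and none in the high digest lists. LFY, ARF19 and MP held no nucleosome of 1000 or more in the other 3 lists. Of these genes only LFY is in the labelled transgene. The source of the high low-dex values at ARF19, MP and UBQ10 was not tested, nor whether it also contributes to those of LFY, and DNA of another construct cannot be told apart from the native genes in these lists.

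In both low digest lists, a step in occupancy was seen at the exon borders that a nucleosome crossed. These were the starts of exons 2 and 3 in low-dex, and the start and the end of exon 2 in low-mock. No nucleosome crossed the other junctions of exon and intron in these lists. The step was looked at after the values had been seen, by setting nucleosomes that lay wholly inside a coding exon against those that crossed a junction of exon and intron. In low-dex, the 7 nucleosomes inside exons had 944 to 1440 and the 2 at junctions had 80 and 96, a ratio of medians of 16.2. In low-mock, the 4 inside exons had 318.7 to 919.4 and the 2 at junctions had 55.85 and 72.22, a ratio of 8.87. In each of these lists LFY ranked first by this ratio, among 13408 and 15606 genes that had both kinds, with medians over genes of 1.07 and 1.03. The step was not seen in LFY alone: in low-dex ARF19 and MP followed with ratios of 7.88 and 7.14, and in low-mock their ratios of 2.25 and 2.04 were above those of 97.1% and 95.4% of genes. In high-mock the 6 nucleosomes inside exons had 184.6 to 479.1 and the 1 at a junction had 226.6, a ratio of 1.07 below the median of 1.19 over genes. In nominal high-dex the values were 212.3 to 420.1 for 6 inside and 201.5 and 208.9 for 2 at junctions, a ratio of 1.49. The interval at the junction of intron 1 and exon 2 printed above shows the form of such a nucleosome, with 32 of its 140 bases in the exon.

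Base composition differed between these parts of LFY. GC content was 52.7%, 52.3% and 51.1% in the coding exons, and 25.8% and 29.4% in the introns. All 31-base words of the coding exons and of the introns occur once in the reference. The part of GC content, and of reads from the transgene, in the occupancy of coding exons was not tested. Native and transgene copies of the coding sequence cannot be told apart in these lists, and the transgene was labelled for all groups.

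The first nucleosome of the LFY coding sequence was listed in all 4 lists at nearly the same place, with its center at 164 (low-mock), 134 (low-dex), 124 (high-mock) and 134 bp (nominal high-dex) past the transcript start. It was the best occupied nucleosome of the locus in high-mock, with 479.1, where 98.72% of the list was lower. In nominal high-dex it reached 420.1, above 98.15% of the list, and the last nucleosome of exon 3 was somewhat higher with 444.5. In intron 2, a nucleosome was centered 1924, 1914, 1924 and 1919 bp past the start in the same order of lists. It was the best occupied intron nucleosome in each of the 4 lists, and its rank was lower in the high digest lists: 86.80%, 83.04%, 64.33% and 36.10% of the list had a lower value. Nucleosomes centered in intron 1 had occupancies at or below the list median, and none touched intron 1 in nominal high-dex, where a gap of 460 bp spanned it.

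**Figure D3:**
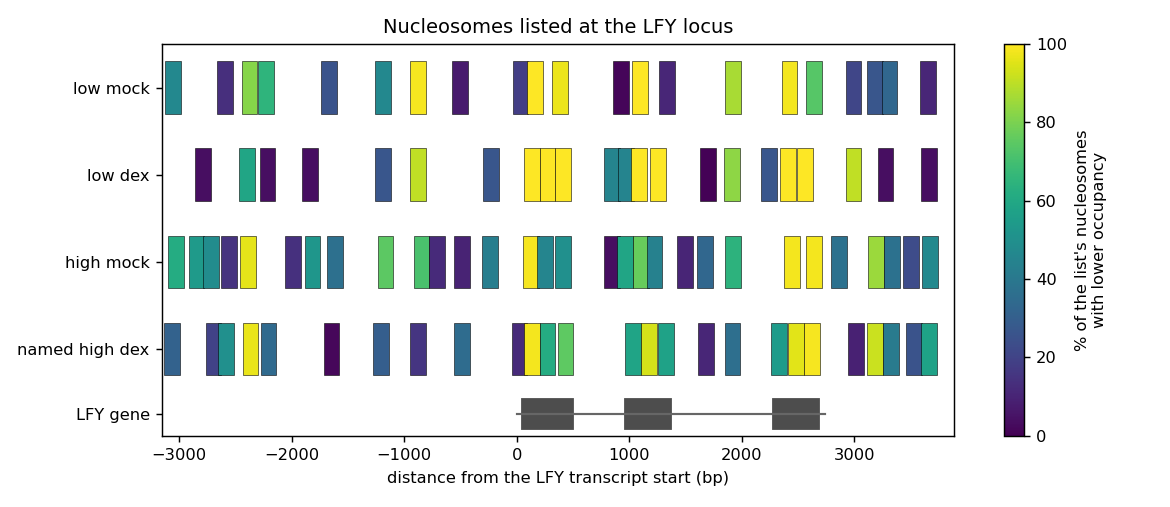
Each box is a listed nucleosome of 140 bp at the LFY locus, drawn to scale against the distance from the LFY transcript start in bp, 1 row per list, colored by the percentage of its list with a lower occupancy; the bottom row shows the gene with coding exons as grey boxes. Yellow boxes sit in coding exons in all 4 rows and also upstream. Upstream ones include -876 bp in low-mock (98.47%), -2386 bp in high-mock (95.78%) and -2366 bp in nominal high-dex (96.66%). Intron 1 is empty in the row named high dex.

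More of the LFY coding sequence was inside listed nucleosomes after dex than after mock, at both digests. Coverage was 67.1% in low-mock and 84% in low-dex, and 77.6% in high-mock and 96.7% in nominal high-dex. The median protein-coding gene had 70.9%, 49.5%, 81.5% and 77.9% in the same order, so that LFY was close to the median in both mock lists and above 97.4% and 97.6% of 27444 genes in the dex lists. LFY coverage was higher in dex by 16.9 percentage points at low and 19.1 at high digest, whereas the median gene differed by -18.9 and -2.68 points. Of the other 27443 genes, 558 had a difference as large at low digest, 632 at high digest and 40 at both. Exon 3 showed the widest spread among the exons, with 61.3% in both mock lists, 77.6% in low-dex and 97.6% in nominal high-dex. UFO had 70.7%, 52.7%, 85.7% and 80.5% of its coding sequence covered, within 5 percentage points of the median gene in each of the 4 lists. Why coverage of the LFY coding sequence was higher in dex was not tested.

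Coverage of LFY introns went in opposite directions at low and high digest. It was 20.7% in low-mock and 41.7% in low-dex, then 44.6% in high-mock and 23.2% in nominal high-dex. Intron 1 accounted for much of this at high digest, with 41% in mock and 0% in nominal high-dex, while intron 2 had 46.4% and 34.9%. Over 16284 genes the median intron coverage was 28.5%, 25.3%, 61.5% and 40.7% in the order of the lists. The dex minus mock difference of LFY was 21 points at low digest, where the median gene had -2.36 and 5.98% of genes were as high or higher. At high digest it was -21.4 points, near the -18 of the median gene, and 85.5% of genes were lower in dex. These differences depended on how many nucleosomes of each list were used: at equal list sizes they were 31.5 and -2.35 points, and with the higher 50% of each list by occupancy 0 and -12.6 points, so that the opposite directions were not seen with the higher 50%. The difference between digests was not tested.

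Upstream of LFY, coverage in the full lists was close to that of the median gene. Of the 1 kb before the start, 31.6% (low-mock), 28% (low-dex), 55.5% (high-mock) and 32.6% (nominal high-dex) lay inside nucleosomes, against gene medians of 28%, 26.7%, 52.3% and 32%. The difference of dex minus mock was -3.6 points at low and -22.9 points at high digest. Over all genes, 31.7% were higher and 49.3% lower in dex at low digest, and 14.1% higher and 77.4% lower at high digest, so that LFY had the sign of the larger share of genes. At equal list sizes the low digest difference of LFY was opposite in sign, 14 points, and in the 500 bp before the start it was 8 points; the high digest difference was -14 points at equal list sizes. The rank of LFY moved also, and 28.5%, 51.6%, 34.2% and 0% of genes had a lower value at equal list sizes. Between digests, the low minus high digest difference of LFY was -23.9 points in mock and -4.6 points in dex; 9.88% of genes were higher and 82.9% lower in the former, 24% higher and 60.7% lower in the latter.

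Several upstream nucleosomes of LFY were found at or near 1 place in different lists. Most starts lie on a grid of 10 bp (98.4% in low-mock, 90.2% in low-dex, 98.9% in high-mock and 98.9% in nominal high-dex), which makes identical positions more likely. Of the distinct positions in the LFY window, 74 were in 1 list, 11 in 2, 1 in 3 and 0 in 4. No share of identical positions over all nucleosomes was computed. One centered at -876 bp was listed at the identical position in low-mock, low-dex and nominal high-dex, and 30 bp nearer to the start in high-mock. Its rank was not the same: 98.47% of the list was lower in low-mock, 90.48% in low-dex, 71.48% in high-mock and 15.60% in nominal high-dex. Further out, nucleosomes near -1191 (low-mock and low-dex), -1166 and -1206 bp were seen in all 4 lists, as were those near -2376, -2396, -2386 and -2366 bp, which lie within GUT1 (AT5G61840), a gene of xylan synthesis. Closest to the start, a nucleosome at -231 bp in low-dex and -236 bp in high-mock had no counterpart in the other 2 lists. Conversely, one at -506, -486 and -486 bp was present in low-mock, high-mock and nominal high-dex and absent from low-dex.

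The nucleosome at -231 bp covers the only CAACTGTC of the LFY locus, at -202 to -195 bp. This site, shown in capitals above, was thus covered in low-dex and high-mock and uncovered in low-mock and nominal high-dex. CAACTGTC was searched on both strands, and 5.17% of the 3-kb upstream windows of all protein-coding genes hold it. Of all nuclear CAACTGTC sites, 49.6% were covered in low-mock, 40.5% in low-dex, 62.8% in high-mock and 56.2% in nominal high-dex. Dex went with a covered site at low digest and an uncovered site at high digest.

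The core letters of LFY binding sites, CCANTGG, with N any base, were found in neither the LFY nor the UFO window, nor was the CArG box of MADS-domain proteins. Of all 3-kb upstream windows, 35.4% hold CCANTGG and 18.5% the CArG box. The auxin response element TGTCTC, present in 80.2% of upstream windows, was found 6 times in the LFY window and 3 times in that of UFO, with 1 upstream of each gene. The one upstream of LFY, at -1688 to -1683 bp, was covered in 3 lists, all but low-dex. The one upstream of UFO, at -1935 to -1930 bp, was covered in high-mock only. Of all nuclear TGTCTC sites, 45% were covered in low-mock, 35.6% in low-dex, 63.3% in high-mock and 52.6% in nominal high-dex. For CACGTG the shares were 62.1%, 53.3%, 68.2% and 63% in the same order. The G-box CACGTG, held by 31.7% of upstream windows, was found at 2 places in the LFY gene body and not elsewhere in the windows, in intron 1, where no list covered it, and in exon 2, where 3 lists did and low-mock did not. Motifs were searched on both strands, no matches overlapped, and matches are letters in the sequence, not sites of binding.

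Upstream of UFO, few nucleosomes were listed, and after low digest with dex there were none. Of its 12 (low-mock), 10 (low-dex), 26 (high-mock) and 18 members (nominal high-dex), 2, 0, 8 and 4 had their center before the start. The outermost, centered at -2830 bp in high-mock and in nominal high-dex, lay within AT1G09095, a noncoding RNA gene. Coverage of the 3 kb upstream was 9.33%, 0%, 36.7% and 18.7%, against gene medians of 36%, 28.2%, 58.4% and 42.6%. At most 14.6% of genes had a lower value than UFO in any of the 4 lists. The 0% of low-dex was shared by 3.68% of genes. In low-dex the stretch without nucleosomes ran for 3290 bp, from the edge of the window to 289 bp past the start.

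A stretch of 940 bp, from -1890 to -951 bp, held no nucleosome in any of the 4 lists. Its GC content was 22.9%, and that of the whole 3 kb was 27.6%, lower than in all but 4.54% of genes, whose median was 35.1%. Of the 31-base words in the 3 kb, 187 occur more than once in the reference, but all 910 words within this stretch occur once. Of the 250 bp next to the start, printed above, only 50 bases were inside a nucleosome, in high-mock. The part of base composition in this low coverage was not tested.

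In the 1 kb before the start, UFO had 14%, 0%, 44% and 14% coverage in low-mock, low-dex, high-mock and nominal high-dex. The 14% of low-mock was shared by 12.3% of genes, and the 0% of low-dex by 15.4%. The dex minus mock difference was -14 points at low and -30 points at high digest, and the median gene differed by 0 and -14 points. At high digest this difference was 0 at equal list sizes, and with the higher 50% by occupancy it was 0 at both digests. The low minus high digest difference was -30 points in mock and -14 points in dex. One upstream nucleosome accounted for the whole coverage of this region in 2 lists: it was centered at -690 bp in low-mock and at -680 bp in high-mock and in nominal high-dex. Of the nucleosomes in its list, 36.83% had a lower occupancy in low-mock, and 73.82% and 74.90% in the high digest lists. It was not in the low-dex list.

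**Figure D4:**
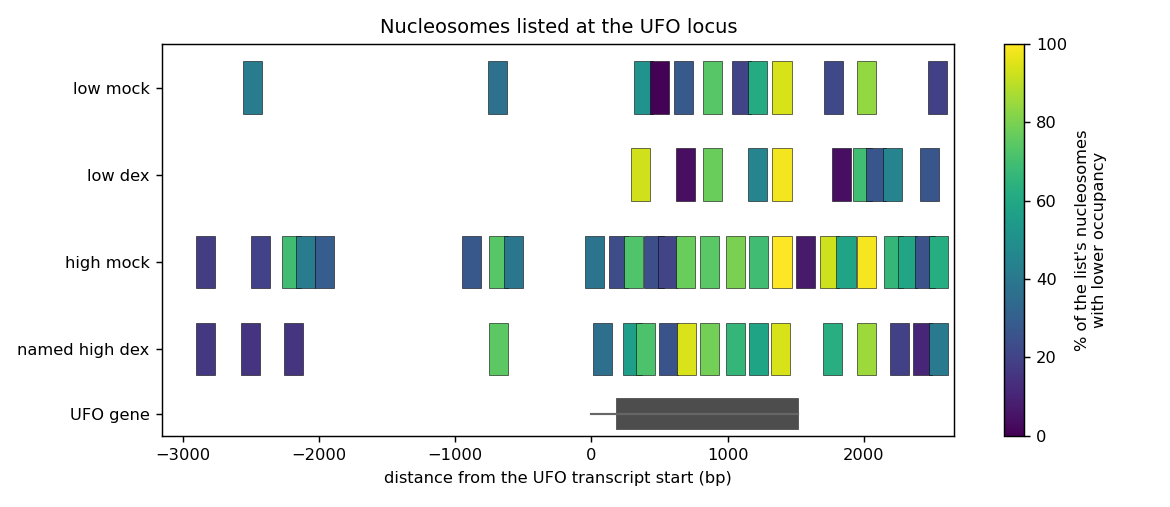
Listed nucleosomes of 140 bp at the UFO locus, drawn to scale against the distance from the UFO transcript start in bp, 1 row per list, colored by the percentage of the list with a lower occupancy; the grey box is the coding sequence. No box lies between -1890 and -951 bp in any row, and the low-dex row is empty before the coding sequence.

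Over the UFO gene, nucleosomes were regularly listed in the coding sequence, and the gene's start was covered in high-mock only. Within the 5′ UTR, a nucleosome was centered at 20 bp in high-mock and at 80 bp in nominal high-dex, and there was none in the low digest lists. The first coding nucleosome was centered at 380, 360, 200 and 300 bp. The last, at 1400 bp in 3 lists and at 1390 bp in nominal high-dex, is the UFO interval printed above. Its occupancy was 270.7 in low-mock, 304 in low-dex, 665.4 in high-mock and 354.4 in nominal high-dex. It was the best occupied UFO nucleosome in the first 3 of these lists, and second in the last to one with 358.1 at 700 bp. In high-mock it was in the highest 1%, the only UFO coding nucleosome of the 4 lists to be so, and 622 nucleosomes of that list were higher. No UFO nucleosome came near the LFY values of low-dex: the highest there was 3.17 times the list median. UFO has no intron, so exon and intron values could not be compared in it.

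Downstream, both windows reach into the next gene. AT1G30960, on the minus strand, has its 3′ end after a gap of 43 bp past the UFO end, and 3, 5, 8 and 5 members were centered in it in the 4 lists. One of these, centered 2020 bp past the UFO start, was at the identical position in low-mock, high-mock and nominal high-dex. Of the distinct positions in the UFO window, 42 were in 1 list, 9 in 2, 2 in 3 and 0 in 4. Beyond LFY, AT5G61865 begins after 320 bp, and 3, 2, 4 and 4 members were centered in it. No downstream member was in the highest 1% of low-dex, where downstream values were between 64 and 192 at LFY and between 64 and 128 at UFO. The parts of these neighbors beyond the windows were not looked at.

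Between mock and dex of 1 digest, from 59.1% to 80.8% of the LFY nucleosomes were found again. Recovery required that 50% or more of the bases of a nucleosome lay inside nucleosomes of the other list. Of the 21 LFY nucleosomes of low-mock, 13 were recovered in low-dex (61.9%, Wilson 95% interval 40.9 to 79.2%), where 61.5% of all nuclear nucleosomes were. In the opposite direction 13 of 22 were (59.1%, 38.7 to 76.7%), against a background of 80%. At high digest, 22 of the 30 mock nucleosomes were recovered in nominal high-dex (73.3%, 55.6 to 85.8%; background 73%), and 21 of 26 in the opposite direction (80.8%, 62.1 to 91.5%; background 92.5%). Intervals cover counting error only, and neighboring nucleosomes of a locus are not independent. The low-dex nucleosomes not recovered in low-mock were 3 of 8 coding, 3 of 4 intron and 3 of 7 upstream nucleosomes.

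Between digests, 17 of 21 LFY nucleosomes of low-mock were recovered in high-mock (background 92.7%) and 17 of 30 in the opposite direction (61.8%). For dex, 17 of 22 of the low digest were recovered in nominal high-dex (85.2%) and 18 of 26 in the opposite direction (55.5%). Among coding nucleosomes alone, 8 of 8 and 9 of 9 were recovered between the dex lists, in which their occupancy ranks were far apart. Coverage of the LFY coding sequence, 96.7% in nominal high-dex and 84% in low-dex, made high recovery likely beforehand. No share over all coding nucleosomes was computed for comparison.

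UFO nucleosomes of a shorter list were nearly all found in the longer one. In low-dex 9 of 10 were recovered in low-mock and 10 of 10 in nominal high-dex. All 18 of nominal high-dex, and all 12 of low-mock, were recovered in high-mock. The converse shares were lower: 8 of 12 of low-mock in low-dex, 19 of 26 of high-mock in nominal high-dex, 13 of 26 of high-mock in low-mock, and 11 of 18 of nominal high-dex in low-dex. The backgrounds given for LFY apply to these directions also. Of the 8 upstream nucleosomes of high-mock, 4 were recovered in nominal high-dex and 2 in low-mock.

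The genes around LFY and UFO in the floral pathway were described from a list of 27, in 4 groups: regulators that act on LFY, repressors, targets of LFY, and partners of UFO in the SCF complex. At low digest, coverage of the 1 kb upstream was higher in dex for 10 of the 27, lower for 11 and equal for 6, and over all genes 31.7% were higher and 49.3% lower. At high digest it was higher for 2, lower for 23 and equal for 2, with a median of -25 points beside -14 for all genes, of which 14.1% were higher and 77.4% lower. Low digest was above high digest for 1 and below for 24 of the genes in mock, and above for 2 and below for 19 in dex. Over all genes the shares above and below were 9.88% and 82.9% in mock, and 24% and 60.7% in dex. The counts of the 27 had the same predominant direction as these shares and are no result about the pathway.

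Of the regulators of LFY, SPL3, a SQUAMOSA-promoter-binding factor, showed the largest sum of absolute differences, with 27.9%, 15.9%, 82% and 21.9% upstream coverage in low-mock, low-dex, high-mock and nominal high-dex. FD, the bZIP partner of the florigen FT, had 0%, 14%, 52.5% and 0%. ANT, an AP2-domain factor, had 28%, 9.8%, 60% and 28.2%. Each of these was lower in dex at high digest, and FD was higher at low digest. The repressors with the largest differences between dex and mock were the Polycomb-group genes CLF, with -7 points at low and -43.5 points at high digest, LHP1, with 14 and -28, and EMF1, with 12 and -25.

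Among targets of LFY, AP3, which specifies petals and stamens, had 17.3%, 42%, 75% and 42.3% upstream coverage in the 4 lists. CAL, a close relative of AP1, had 42%, 14%, 67.7% and 40.7%, and the homeodomain gene LMI1 had 16%, 13.5%, 79% and 33%. AP1, the meristem identity gene, had 35.2%, 14%, 36% and 34.2%. RAX1, a MYB gene of axillary meristems, had 14%, 14%, 42% and 14%. The difference of AP3 at low digest was opposite in sign to those of CAL and AP1. Of the SCF subunits, ASK2, which links the F-box protein to the cullin, differed by -22 and -6 points, the RING protein RBX1 by 2.3 and -15, and the cullin CUL1 by 2 and -13.

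In coding sequence, 5 of the 27 genes were higher in dex at low digest and 7 at high digest, with medians of -17.7 and -4.47 points beside -18.9 and -2.68 for all genes. Of all genes, 10.7% and 33.7% were higher. UFO, with -18.1 and -5.19, was close to these medians, and LFY, with 16.9 and 19.1, was not. Rises of like size at 1 digest were also seen among the 27. SOC1 differed by 16.8 points at low and -36.7 at high digest, and FD by -26.1 and 22.9. At equal list sizes the differences were 0 and 7.52 points for UFO, and 31.3 and 48 points for LFY. MP, whose occupancies stood out in low-dex, had 78.7% coding coverage in low-mock and 78.3% in low-dex. Its difference was -0.48 points, beside the median of -18.9 for all genes.

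**Figure D5:**
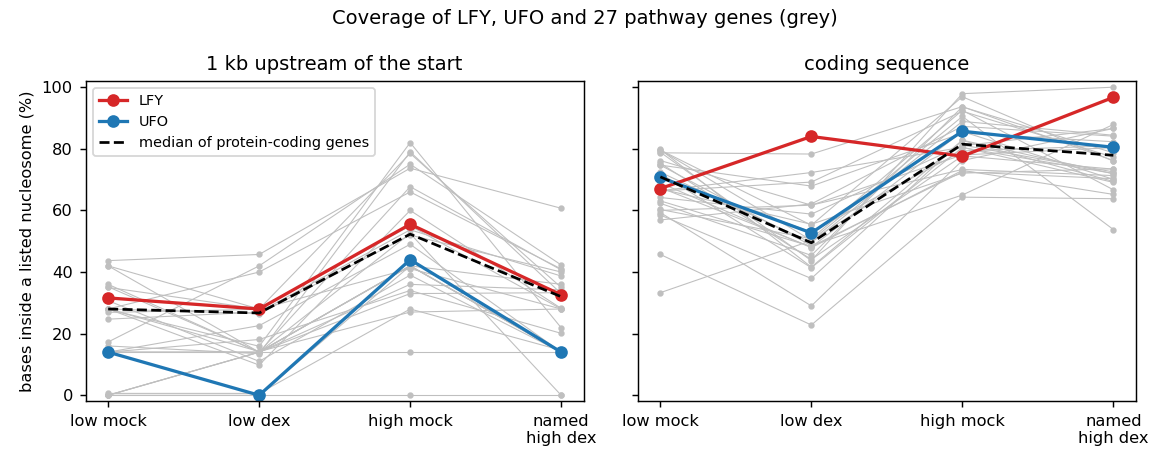
Percentage of bases inside a listed nucleosome in the 1 kb upstream (left) and in the coding sequence (right), by list; red is LFY, blue UFO, grey lines are the 27 pathway genes and the dashed line is the median of all protein-coding genes. UFO runs below the dashed line upstream, and LFY lies above it in the coding sequence in both dex lists, to 84% and 96.7%.

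The pattern around the start was compared between genes by scoring each 10 bp within 1000 bp on either side as covered or not in the 4 lists, 804 positions in all. The 3 genes closest to LFY were AAE17 with 74.6% of positions the same, M17 with 74.5% and AT4G30800 with 73.5%, against a median of 53.9% over 27443 genes. For UFO they were NAP with 82.7%, AT5G17160 with 79.7% and AT1G31730 with 79.2%, against a median of 59%. LFY and UFO themselves shared 52.9% of positions, below the median for either. Within LFY, low-mock and nominal high-dex were the most alike with 84.1%, followed by low-dex and high-mock with 81.6%; the other pairs shared 65.7% to 71.1%. For UFO the closest pair was low-mock and low-dex, with 84.1%. Likeness between lists was computed for LFY and UFO only, so these pair shares have no background over genes. Positions uncovered in both lists count as the same.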

How the data were processed

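MNase-seq libraries, 2 per condition, were represented by 1 deposited list of nucleosomes per condition, and groups were taken from the labels. According to the methods, paired reads were placed on TAIR10 with Bowtie 1.2.2, only those with 1 best location were retained, and DANPOS was used for nucleosome calling; Picard 2.9.4 also stands in the submitters' processing notes. The low-dex replicates were merged first, and how the others were combined is not stated further. The deposited occupancy is the signal at the nucleosome summit, on the scale of the authors' caller, and was used only within its own list. All occupancies of low-dex, and none of the other lists, were whole multiples of 8. How this affects its values was not tested. The lists give no read counts. The reference genome is that of Columbia, not Landsberg erecta.

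Starts were taken as 0-based, and positions are printed 1-based. Gene models were those of RefSeq for TAIR10.1, whose nuclear coordinates are those of TAIR10. Coverage is the percentage of bases of a region inside any listed nucleosome, and genes were compared over 27444 nuclear protein-coding genes. Exon and intron occupancies were compared for genes with at least 300 bp of intron in the case of coverage, and at least 2 nucleosomes of each kind in the case of medians. Computations used python 3.11.15, numpy 2.4.6 and scipy 1.17.1, and the routines were tested on simulated lists with known answers.

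The members, the pathway list and the motifs were chosen with earlier results of these data known. The genes named by rule were both members, the genes next to their windows, the 3 pathway genes per group with the largest absolute change in upstream coverage from mock to dex summed over the digests, RAX1 and AP1, and the 3 genes most like each member around the start. ARF19, MP and UBQ10 were named outside this rule, after their values had been seen. Alternatives were equal list sizes, the higher 50% by occupancy, starts counting from 1, other windows, other overlaps and other ways to assign nucleosomes to exons.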

Additional observations from a re-analysis of the deposited data

Results flagged for a closer look

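Coverage of the LFY introns by listed nucleosomes differed by 21 percentage points from mock to dex at low digest and by -21.4 points at high digest. It was singled out because the single pair of lists at each digest moved in opposite directions; with 1 list per condition the difference was not tested. With the higher 50% of each list by occupancy the differences were 0 and -12.6 points, and at equal list sizes 31.5 and -2.35 points. The median of 16284 genes was -2.36 points at low and -18 points at high digest. The intron nucleosomes behind it were few, 2 in low-mock, 4 in low-dex, 4 in high-mock and 2 in nominal high-dex.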

How the results depend on the processing

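No paired analysis was possible because each condition was deposited as 1 pooled list, and for the same reason no replicate could be left out. Shares were held to have moved when they left the Wilson 95% interval of the reported value, with 1 observation per 140 bp for coverage, and counts, ratios or differences when they changed by over 1.5 times or, for differences, in sign. Reading starts as counting from 1, assigning nucleosomes by their larger number of bases, leaving out 20 bp at the exon edges, counting by center and a 1-kb window moved none of the values they were applied to. LFY coding coverage of single lists stayed inside its Wilson interval under every alternative. That interval is wide, and also held falls at equal list sizes from 67.1% to 52.7% in low-mock and from 77.6% to 47.4% in high-mock. Coding coverage was higher in dex at equal list sizes (52.7% and 84% at low, 47.4% and 95.4% at high digest). The ratio of coding to intron occupancy in low-dex was 15.8 under every other alternative that left 2 nucleosomes of each kind; the higher 50% did not leave them in any list, nor did equal sizes in the 3 longer lists. Setting nucleosomes wholly inside coding exons against those crossing an exon edge, chosen after seeing the data, gave ratios of 8.87 in low-mock, 16.2 in low-dex, 1.07 in high-mock and 1.49 in nominal high-dex.

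Several dex minus mock differences in coverage depended on the lists' lengths. In percentage points, at equal list sizes and with the higher 50%, they were 14 and 0 (LFY upstream, low digest), -14 and -14 (LFY upstream, high), 31.5 and 0 (LFY introns, low), -2.35 and -12.6 (LFY introns, high), 31.3 and 24.2 (LFY coding, low), 48 and 48 (LFY coding, high), 0 and 0 (UFO coding, low), 7.52 and 7.52 (UFO coding, high), -14 and 0 (UFO upstream, low), and 0 and 0 (UFO upstream, high). The LFY upstream difference at low digest and the UFO coding difference at high digest thus changed sign at equal sizes. In the 500 bp upstream, differences were 8 (LFY, low), 0 (UFO, low) and -10 (UFO, high).

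At equal list sizes, LFY nucleosomes were 13 (high-mock) and 15 (nominal high-dex), and UFO ones 14 in high-mock. Upstream coverage of LFY became 14% in high-mock and 0% in nominal high-dex, that of UFO 14% in high-mock, and LFY intron coverage 15.2% in high-mock. LFY recovery became 53.3% (nominal high-dex in high-mock), 54.5% (low-dex in nominal high-dex), 76.9% (high in low-mock) and 86.7% (nominal high-dex in low-dex). With the higher 50%, LFY nucleosomes were 9, 11, 13 and 12 and UFO nucleosomes 5, 6, 14 and 10 in the order low-mock, low-dex, high-mock, nominal high-dex. Upstream coverage was then 14% (LFY) and 14% (UFO) in high-mock, 0% (LFY) in nominal high-dex and 0% (UFO) in low-mock. Intron coverage of LFY was 10.3% in both low digest lists, 15.2% in high-mock and 2.64% in nominal high-dex. Recovery became 53.8% and 58.3% for LFY at high digest (mock in dex, dex in mock) and 100% for UFO at low digest (mock in dex). In the 500 bp upstream, UFO coverage was 0% in low-mock and nominal high-dex and 10% in high-mock.

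With 1 bp of overlap, LFY recovery was 81% (low-mock in low-dex), 77.3% (low-dex in low-mock), 95.2% (low-mock in high-mock), 73.3% (high-mock in low-mock), 92.3% (nominal high-dex in high-mock) and 84.6% (nominal high-dex in low-dex), and UFO recovery 88.5% (high-mock in nominal high-dex). At 80% overlap, LFY recovery was 36.7% (high-mock in low-mock), 50% (high-mock in nominal high-dex), 57.7% (the converse) and 46.2% (nominal high-dex in low-dex). For UFO it was 50% (low-dex in low-mock), 30.8% (high-mock in low-mock), 53.8% (high-mock in nominal high-dex), 60% (low-dex in nominal high-dex) and 27.8% (the converse). Of 80 alternatives for motif sites, percentiles and ranks, 20 moved, mostly with shorter lists; at equal sizes 39% rather than 16.6% of genes had lower 1 kb upstream coverage than UFO in nominal high-dex, and for LFY the share was 28.5% rather than 58.6% in low-mock, 34.2% rather than 55.4% in high-mock and 0% rather than 50.5% in nominal high-dex. The cause of these differences was not tested, beyond the fewer nucleosomes kept.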
